A study of Mus musculus with 2 samples.

Results

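Some CpG cytosines of the liver genome were read many times in one of 2 bisulfite libraries and were missing from the other's list. They were taken as autosomal CpG cytosines with at least 20 reads in one library and no row in the other library's list. Whether whole restriction fragments were missing was not tested. Such cytosines under 300 bp apart were joined, and stretches of 2 or more cytosines were kept. The rule gave 614 stretches with 2688 cytosines read in the control library only and 737 stretches with 2962 cytosines read in the fasted library only, 1351 stretches in all. The same joining of every autosomal cytosine with at least 20 reads gave 73616 control and 84384 fasted stretches. The stretches were chosen by the read depth in both libraries, so their number and depth are given as a description with no test.

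The liver DNA came from 12-week-old mice of CD-1, an outbred stock whose animals differ from each other in sequence. The control group was untreated and the fasted group went 12 hr without food, and both groups share the stock, age and tissue. Each group is 1 library, and the labels do not say whether it holds the DNA of 1 mouse or of several. Fasting, the animals and the handling of each library therefore cannot be told apart, and intervals cover counting error only. Coordinates are in mm10, counted from 1.

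Reduced representation bisulfite sequencing reads the ends of short restriction fragments, here cut by MspI at CCGG and by TaqI at TCGA. A fragment enters a library only if both of its ends are cut and its length lies in the range taken from the gel, and bisulfite then turns unmethylated cytosines into bases read as T. In liver, as in other tissues, CpG-rich promoters are mostly unmethylated and CpGs elsewhere are mostly methylated.

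The first sequences show what such a stretch looks like between its cut sites. Of the stretches without a cut site between their ends and with a cut site on both sides upstream of a gene start, these are the 3 with the most cytosines in each direction, chosen after their values were seen. Capitals mark CCGG and TCGA sites, and the sequences are from RefSeq, build GRCm38.p6. Each piece runs 5′ to 3′ on the gene's strand. The control-only pieces lie at chr4:108383315-108383415 on the plus strand for Gm32297, chr4:155992593-155992798 on the plus strand for Sdf4 and chr3:100162538-100162656 on the minus strand for Wdr3.
Gm32297: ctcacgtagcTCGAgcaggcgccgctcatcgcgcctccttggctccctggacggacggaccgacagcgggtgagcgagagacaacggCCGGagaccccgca
Sdf4: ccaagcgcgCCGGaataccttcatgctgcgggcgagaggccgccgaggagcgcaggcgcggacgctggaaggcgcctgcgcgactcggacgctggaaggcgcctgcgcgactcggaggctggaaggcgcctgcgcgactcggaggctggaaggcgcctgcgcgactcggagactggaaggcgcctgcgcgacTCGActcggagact
Wdr3: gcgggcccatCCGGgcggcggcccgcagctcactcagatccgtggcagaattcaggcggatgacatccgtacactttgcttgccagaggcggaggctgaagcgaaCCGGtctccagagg

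The fasted-only pieces lie at chr17:24696129-24696185 on the plus strand for Noxo1, chr14:8666149-8666261 on the plus strand for 4930455B14Rik and chr2:156144241-156144384 on the minus strand for Nfs1. They are shown to compare with the control-only pieces.
Noxo1: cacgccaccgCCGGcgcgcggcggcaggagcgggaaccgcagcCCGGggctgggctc
4930455B14Rik: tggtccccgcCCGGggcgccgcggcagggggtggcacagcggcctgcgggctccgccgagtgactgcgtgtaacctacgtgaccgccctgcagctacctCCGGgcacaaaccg
Nfs1: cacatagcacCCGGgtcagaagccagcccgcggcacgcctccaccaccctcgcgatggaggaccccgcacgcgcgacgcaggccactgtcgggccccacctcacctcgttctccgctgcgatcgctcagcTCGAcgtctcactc

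Noxo1 encodes an organizer of an NADPH oxidase. The 15 cytosines of its stretch span bases 12 to 46 of the piece, and the flanking sites lie 33 bp apart. They had 22 to 44 reads in the fasted library at a methylation level of 0%, and no row in the control library. The 106 neighbouring cytosines within 1000 bp had 20.3 reads each in the control library, against 20.4 with fasting, and the nearest cytosine listed by the control library lay 16 bp away. Averaged over all neighbours, depth was thus alike in both libraries.

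Wdr3 encodes a WD-repeat protein. Its 9 cytosines, at bases 12 to 102 of the piece, had 23 reads each in the control library at 1.93%, between CCGG sites 95 bp apart. The 93 neighbours had 24.7 control and 19.2 fasted reads. Sdf4 encodes a calcium-binding protein of the Golgi, and its 11 cytosines had 21 to 60 reads at 0.433% between sites 183 bp apart. Nfs1, the cysteine desulfurase of iron-sulfur cluster assembly, had 10 cytosines with 20 to 22 reads at 0.955% in the fasted library. Its 79 neighbours had 27.9 control and 30.2 fasted reads. The 188 neighbours of Sdf4 had 29.2 control and 23.6 fasted reads, and the 37 of Gm32297 had 16.9 and 16.4. The 28 of 4930455B14Rik had 13.96 control and 23.4 fasted reads, the widest gap of the 6. The other library listed 7 cytosines inside the Gm32297 stretch and 1 inside those of 4930455B14Rik and Nfs1.

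Only windows of 300 bases at gene starts (250 before to 50 after the start) could be searched for cut sites, and none on chromosome 18. CCGG occurred in 53.5% and TCGA in 22.1% of 31396 such windows, and 61.0% held one or the other; both sites read the same on both strands. 36 control-only and 35 fasted-only stretches lay wholly inside a window. No cut site lay between the ends of 30 of 36 (83.3%) and 33 of 35 (94.3%) of them, against 78.9% and 78.8% of stretches listed in both libraries. An end of the stretch was at a cut site in 19 (52.8%) and 18 (51.4%), against 75.4% and 75.6%. In 41 stretches a site was found on both sides, and the sites lay 9 to 255 bp apart with a median of 76 bp. Sites farther apart than the window of 300 bases could not be found, so these distances are capped. The reference held CG at 326 of 326 control-only and 320 of 320 fasted-only cytosines in these windows.

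The libraries were of similar size. The control library held 49253627 reads over 4111027 cytosines with a median of 8 reads, and the fasted library 51276705 reads over 4110421 with a median of 9. Reads carry no molecular identifiers, so copies of 1 molecule cannot be told from separate molecules.

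Absence stood apart from low depth. Of 750343 autosomal cytosines with at least 20 control reads, 3179 (0.424%) had no fasted row, while 248 had 1 fasted read, 297 had 2 and 206 had 3. Of 789096 with at least 20 fasted reads, 3490 (0.442%) had no control row, while 248 had 1 control read, 424 had 2 and 438 had 3. The class without a row was larger than those of 1, 2 and 3 reads in both directions.

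**Figure D1:**
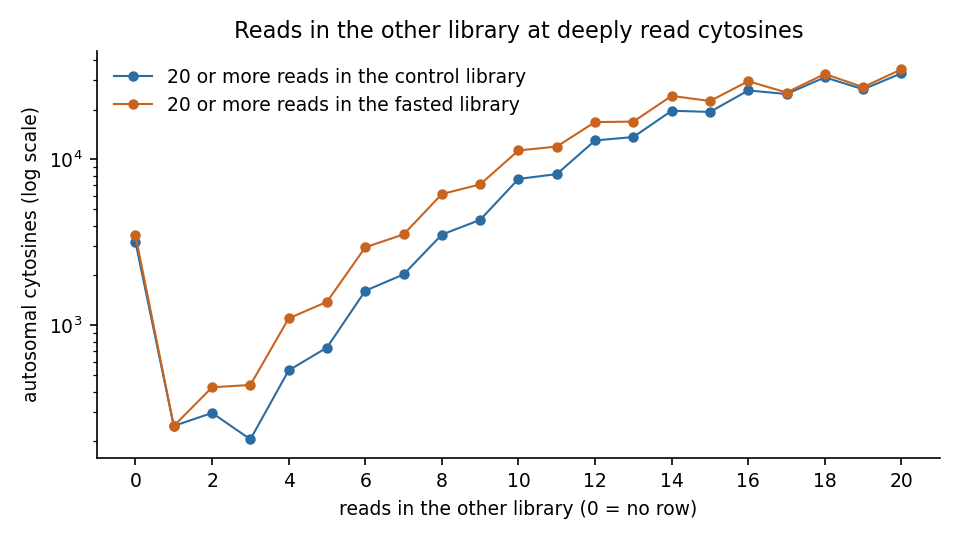
Number of autosomal cytosines (y axis, log scale) by reads in the other library (x axis) for cytosines with at least 20 reads in the control (blue) or fasted (orange) library. The point at 0, 3179 and 3490 cytosines, lies above the point at 1 read, 248 in both.

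The share without a row was lower at high depth but did not reach 0. In the control library it was 0.4996% (0.475 to 0.526, exact Clopper-Pearson interval at 95%) at 20 to 24 reads and 0.241% (0.183 to 0.310) at 60 reads or more. In the fasted library it was 0.587% (0.560 to 0.614) and 0.240% (0.181 to 0.313). Just outside the threshold, at 19 reads, 407 control and 483 fasted cytosines had no row in the other library, and just inside, at 20 reads, 414 and 543 had none. A further 491 control-only and 528 fasted-only cytosines had no second one within reach and were left out as single.

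The stretches were short. The median was 3 cytosines in both directions, and the span from first to last cytosine had a median of 43 bp in the control-only and 38 bp in the fasted-only stretches, against 81 and 104 bp in stretches listed in both libraries. The longest spans were 1069 and 512 bp, and 592 of 614 and 710 of 737 spanned at most 220 bp. 34.7% of control-only and 33.2% of fasted-only stretches held cytosines of both strands, against 50.3% and 50.96% of those in both libraries. The median reads per cytosine were 25 and 24. On the strand opposite each missing cytosine, the other library did list the partner C of the same CpG in 413 of 2688 (15.4%) and 445 of 2962 (15.0%) cases.

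Methylation was mostly near 0 or near 100% in both directions. Under 20% methylated were 231 control-only stretches (37.6%, interval 33.8 to 41.6) and 271 fasted-only stretches (36.8%, 33.3 to 40.4), against 32.1% and 29.6% of stretches listed in both. Over 80% were 229 (37.3%) and 292 (39.6%), against 40.1% and 42.7%. The 2 directions differed from each other by less than their intervals in both classes. With stretches that held a cytosine of the other library inside left out, the shares under 20% were 31.4% and 29.4%. At a minimum of 10 reads they were 19.9% and 20.2%. The share of stretches listed in both was not computed under those settings. Level moved with size: the median was 76.5% and 77.5% in stretches of 2 cytosines and 0.9503% and 0.667% in those of 10 or more, of which there were 54 and 51. In stretches listed in both libraries the same medians were 82.6% and 83.5%, and 0.946% and 1.13%.

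**Figure D2:**
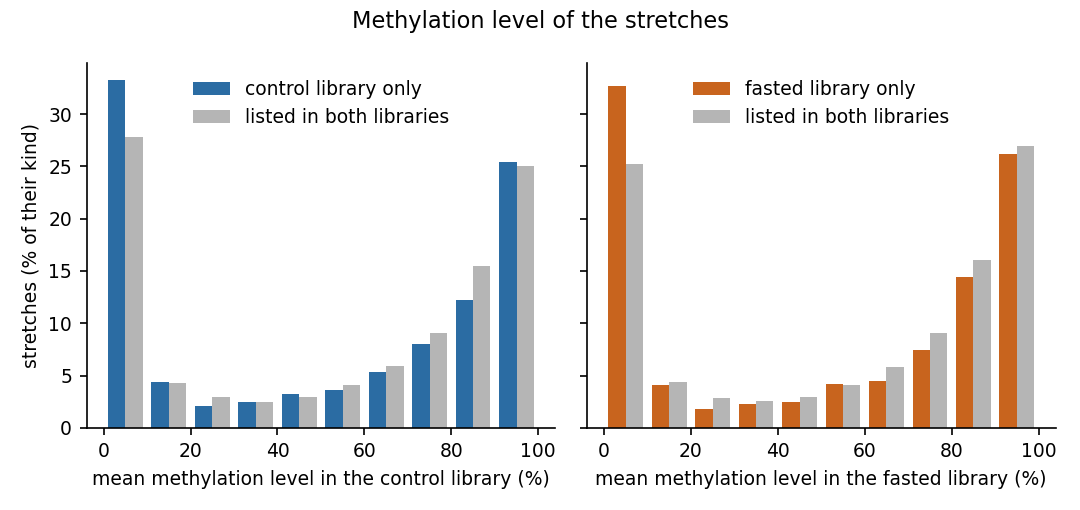
Share of stretches (y axis, % of their kind) by mean methylation level (x axis, in steps of 10 points) for stretches read in one library only (coloured) and listed in both (grey). The lowest class holds 33.2% of control-only and 32.7% of fasted-only stretches, against 27.9% and 25.2%.

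The methylation level of a stretch differed with the distance to the other library's nearest reads. The other library listed a cytosine inside the span of 149 control-only and 214 fasted-only stretches and within 100 bp of 212 and 233 more. Median levels were 6.17% and 5.83% for the first class and 12.9% and 35.4% for the second. Both classes held both kinds of level: inside, 85 control-only and 117 fasted-only stretches were under 20% and 44 and 60 over 80%, and within 100 bp 111 and 113 were under 20% and 54 and 73 over 80%. For another 104 and 138 it lay beyond that but within 1000 bp, and 149 and 152 lay over 1000 bp from any cytosine of the other library, at most 26575 and 36259 bp. The distant stretches had medians of 82.7% and 83.0%. A gene start within 1000 bp was found for 38.4% and 39.3% of the stretches with a cytosine of the other library inside and for 2.03% and 2.82% of the distant ones, leaving out chromosome 18. The density of CpGs and cut sites also differs between such places, and its part was not tested.

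**Figure D3:**
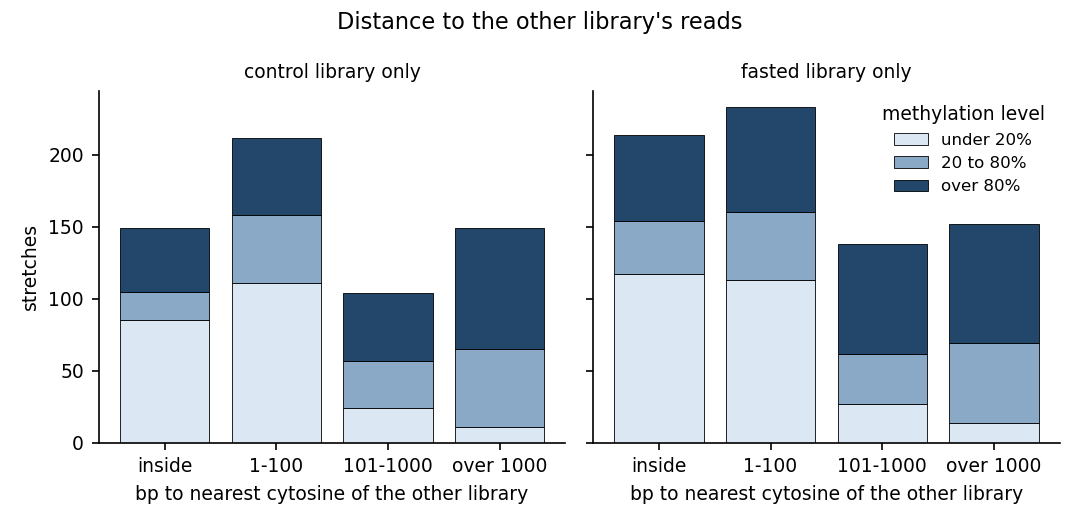
Number of stretches (y axis) by distance in bp to the nearest cytosine listed by the other library (x axis), divided by methylation level. Of the stretches over 1000 bp away, 84 control-only and 83 fasted-only ones were over 80% methylated and 11 and 14 were under 20%.

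The neighbours of the stretches were read at close to equal depth in most cases. Neighbouring cytosines are those listed in both libraries within 1000 bp outside the span, and 365 control-only and 476 fasted-only stretches had at least 3. Around control-only stretches the neighbours had a median of 15.9 control and 15.8 fasted reads. Around fasted-only stretches the medians were 15.8 fasted and 14.1 control reads. After scaling by library totals, the median log2 ratio of the reading library to the other was 0.079 (0.043 to 0.129) for control-only and 0.027 (-0.017 to 0.064) for fasted-only stretches. Around stretches listed in both it was -0.080 and 0.0025. 330 of 365 (90.4%) and 436 of 476 (91.6%) lay within 2-fold, against 96.9% and 96.7%. More than 2-fold in favour of the reading library were 27 and 33, and in favour of the other library 8 and 7. The comparison with stretches listed in both is not like for like, since those take deep shared cytosines into their span. Neighbours left to them had medians of 10.5 control and 11.75 fasted reads (control stretches). For fasted stretches the medians were 11.1 fasted and 10.5 control reads.

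Cytosines that both libraries listed inside a span still leaned to the reading library, by 0.56 on the log2 scale for control-only and 0.20 for fasted-only stretches. At 1 to 50 bp the values were 0.30 and 0.10, and at 51 to 100 bp 0.087 and 0.0048. Beyond that they lay between -0.019 and 0.143 for the first and between -0.101 and 0.023 for the second, up to 5000 bp. Around stretches listed in both libraries the values beyond the span lay between -0.180 and -0.106 (control) and between -0.187 and 0.020 (fasted). These carry the limit given above, and no conclusion is drawn from the gap to them. By their own values, control-only stretches kept a small lean to the control library up to 2000 bp, larger inside the span than outside it.

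**Figure D4:**
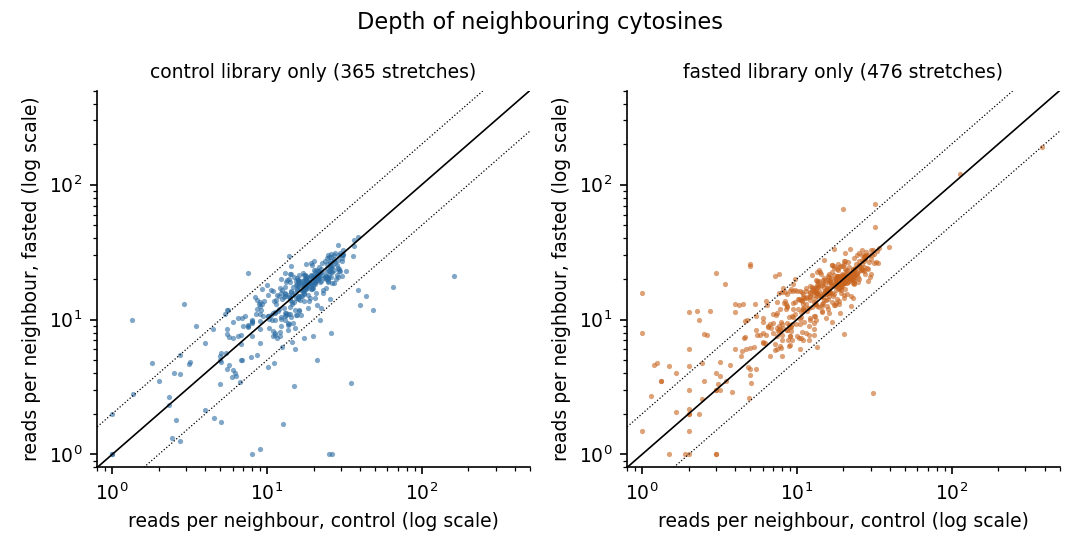
Mean reads per neighbouring cytosine within 1000 bp in the control (x axis) and fasted library (y axis), both log scales, 1 point per stretch with at least 3 neighbours. The solid line marks equal reads and the dotted lines 2-fold; 330 of 365 and 436 of 476 stretches lie within 2-fold after scaling by library totals.

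Not all stretches had a shared surrounding. No cytosine of both libraries lay within 1000 bp of 180 control-only (29.3%) and 188 fasted-only stretches (25.5%), against 4.61% and 5.74% of stretches listed in both. Shallower absence was also counted around the stretches. Of cytosines with at least 5 reads within 300 bp outside or inside a control-only stretch, 23.1% had no fasted row, against 1.32% of all such cytosines, and for fasted-only stretches 23.9% against 1.66%. The stretches' own cytosines were left out of these shares. The cytosines counted can still share reads with them, and the rule required those reads to be absent. A higher share thus follows in part from the rule, and no conclusion is drawn from it.

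Many of the control-only stretches with the most cytosines lay at or near gene starts. The one with the most, 68 cytosines at chr1:36938979-36940047, overlapped the start of Tmem131, which encodes a transmembrane protein. Its cytosines had 20 to 76 control reads and a level of 0.615%, and the fasted library listed 136 other cytosines inside the same span. So the start was read in both libraries, and these 68 cytosines in the control library only. At Nprl3, a subunit of the GATOR1 complex that restrains mTORC1, 24 cytosines at chr11:32267635-32267707 had 24 to 54 control reads at 0.154%. Its 18 neighbours had 38.7 control and 40.7 fasted reads. Ago4, an Argonaute protein, had 22 cytosines at chr4:126533268-126533468 at 0.379%, with 127 neighbours at 16.2 control and 18.9 fasted reads. Col23a1, a collagen gene, had 24 cytosines at chr11:51290133-51290332 with 28 to 61 reads at 0.669%. Reln, which encodes the extracellular protein reelin, had 19 cytosines 181 bp outside the gene at chr5:22344886-22345201, at 0.735%, with 54 cytosines of the fasted library inside. These stretches show unmethylated DNA and neighbours of like depth in both libraries. A stretch of 23 cytosines at chr17:23699997-23700164, 4444 bp from the nearest gene, was at 0%.

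Il3ra, the alpha chain of the interleukin-3 receptor, had stretches in both directions. 20 cytosines at chr14:14345578-14345791, 121 bp outside the gene, had 23 to 38 control reads at 0.645%. In the fasted library 17 cytosines at chr14:14346246-14346304, within the gene, were at 0.498%. Only 3 neighbours of the latter could be tested, with mean levels of 77.5% (control) and 5.56% (fasted), 2 of them called by the test given below.

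From Vmn2r-ps15 to Zfp978 on chromosome 4, control-only stretches lay in genes of near-identical families, where reads could be placed wrongly, so these values are uncertain. Zfp978, a zinc finger gene, held 22 cytosines at chr4:147275899-147276048 with a level of 28.1% that ranged from 6.25 to 59.3% between cytosines. Its 49 neighbours had 38.7 control and 16.6 fasted reads. Zfp993 held 19 at chr4:146932618-146932930 at 12.2%, and its 3 neighbours had 26.3 control reads and 1 fasted read. Vmn2r-ps15, a pseudogene of the vomeronasal receptors, held 21 at chr4:145745161-145745492 at 5.76%, with no shared neighbour outside the span. Inside the span the fasted library listed 26 cytosines at Vmn2r-ps15, 17 at Zfp978 and 21 at Zfp993. Gm13142 held 6 at chr4:147101900-147102449 at 2.39%, with 28 cytosines of the fasted library inside the span. Depth itself was thus higher in the control library around 2 of these 4 by over 2-fold.

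The deepest control-only stretch lay in Cwc22, a spliceosome gene in a segment known to vary in copy number between mouse stocks. Its 2 cytosines at chr2:77944971-77945072 had 97 and 147 control reads at 88.9%, and 31 neighbours had 65.6 control against 17.6 fasted reads. A further stretch of the gene at chr2:77936490-77936546 had 3 cytosines with 60 to 141 reads at 96.3%, and its 3 neighbours had 162 control against 21 fasted reads. Copy number was not tested. The other deep ones were 11 cytosines with 59 to 61 reads in Zc2hc1a at 1.06%, 5 with 61 reads each in Cfhr3, a complement factor H-related gene, at 78.4%, and 8 with 27 to 60 reads at the start of Cadps at 2.23%. The Cfhr3 cytosines ran from 0 to 100%.

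Long control-only stretches other than these had 5 to 12 cytosines: 12 over 363 bp in Gm4718 at 2.74%, 9 over 396 bp near Vmn1r157 at 74.0%, and 5 over 351 bp in B4galnt2 at 90.2%. Between 20 and 80% methylated were 154 control-only stretches (25.1%), against 27.8% of those listed in both. Among stretches of at least 5 cytosines the nearest to 50% were at Soat1, a sterol acyltransferase, with 50.6%, between genes near Rbfaos with 48.7%, near Olfr31 with 43.3%, near Rpl31-ps3 with 41.9% and in Igsf23 with 64.8%. Within each of these 5 the cytosines spread widely, from 20 to 80% in Soat1 and from 0 to 91.3% near Rbfaos.

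The fasted-only stretches with the most cytosines were of the same kind. Ube2e3, a ubiquitin-conjugating enzyme, held 24 cytosines at chr2:78869541-78869624 with 23 to 31 fasted reads at 0.655%, and 186 neighbours with 16.7 control and 18.1 fasted reads. Its paralog Ube2e1 held 18 at chr14:18331459-18331507 with 28 reads each at 0.397%. At the start of Nupl1, a nucleoporin, 22 cytosines at chr14:60251377-60251543 had 25 to 42 reads at 0.472%, with neighbours at 20.7 control and 22.8 fasted reads. Dis3, the ribonuclease of the RNA exosome, had 22 cytosines at chr14:99099696-99099846 with 21 or 22 reads at 0.630%, with neighbours at 23.6 control and 19.6 fasted reads. None of these was deeper in the fasted library by 2-fold around the stretch.

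Cep250, a protein that links centrosomes, had 20 cytosines at chr2:155956498-155956635 at 0%, with 59 neighbours at 18.2 control and 20.1 fasted reads. Rbfa, a ribosome assembly factor of mitochondria, had 20 at chr18:80200454-80200743 at 1.45%. Naa35, a subunit of an N-terminal acetyltransferase, had 20 at chr13:59585692-59585840 with 20 or 21 reads at 1.00%. Srrm2, a large splicing protein, had 20 at chr17:23803061-23803231 at 0.410%, where Gm52285 overlaps it. BC024063 had 19 at chr10:82083216-82083556 at 2.18%, and its 2 neighbours had 1 control and 14 fasted reads. Gm46404 had 19 at chr13:23445577-23445886 at 0.388%. Apart from BC024063, the neighbours of these genes were read at a similar depth in both libraries.

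The deepest fasted-only stretches were at D530033B14Rik, with 144 reads at each of 2 cytosines at chr7:38183781-38183787 and 28 neighbours at 31.9 control against 72.3 fasted reads, and 2139 bp outside it, with 61 to 87 reads at 6 cytosines and 19.1% methylation. Others were 75 reads at 3 cytosines near Gm1330 at 54.2%, 67 reads at 2 cytosines near Gm5897 at 83.6% and 66 reads at 2 cytosines in Exoc4, a subunit of the exocyst, at 98.5%. The cytosines near Gm1330 ran from 0 to 89.3%. The longest were 512 bp near Gm18227 with 17 cytosines at 9.54%, 373 bp at H1f3, a linker histone, with 12 at 0%, 355 bp in Gm5624 with 12 at 94.3% and 351 bp at Rab3gap1 with 16 at 3.86%. Nearest to 50% were stretches in Pard6g at 52.9%, near Gm27047 at 54.2%, in Gm42011 at 56.7%, near Selenbp2 at 58.4% and in Nfatc1, a transcription factor, at 61.2%. Their cytosines also spread, from 38.5 to 69.2% in Pard6g and from 25 to 91.7% near Gm27047.

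Most stretches lay inside genes. 379 control-only stretches (61.7%, interval 57.8 to 65.6) and 451 fasted-only ones (61.2%, 57.6 to 64.7) overlapped a gene, against 67.8% and 67.9% of stretches listed in both. The control-only share was 71.5% for stretches of 5 or more cytosines and 78.6% at 50 reads or more. The share of stretches listed in both was not computed under those settings. Whether the control-only share lay below it there was therefore not tested. Within 1000 bp of a gene start, without chromosome 18, were 137 of 598 (22.9%) and 169 of 689 (24.5%), against 21.3% and 19.4%. Exons, introns and UTRs were not analysed here.

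Stretches in genes tied to the fast were counted beside those listed in both libraries. Of 33 genes of gluconeogenesis and the fasting response, 2 control-only stretches (0.326% of all, against 0.153% of those in both libraries) and 0 fasted-only stretches (against 0.138%) lay in a member. One was in Insr, the insulin receptor, where 12 cytosines at chr8:3279320-3279349 had 27 to 36 control reads at 0.939% and 58 neighbours had 21.7 control and 20.2 fasted reads. The other was in Nr3c1, the glucocorticoid receptor. Of 20 genes listed for lipogenesis and glycolysis, 0 stretches in either direction lay in a member, against 0.0956% and 0.0882% of those in both libraries. The list leaves out other glycolysis genes, and control-only stretches did lie in Hk1 and Pfkp. Hk1 had 4 cytosines at 2%, and Pfkp had 2 at 81.5% and 4 at 1.04%. Shares this small amount to about 1 stretch or fewer per direction, so a count of 0 is not a result about these genes.

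Among gene families, 134 cytochrome P450 genes held 1 control-only stretch (0.163%, against 0.134%) and 3 fasted-only ones (0.407%, against 0.126%). Cyp51, a sterol demethylase, held stretches of both directions. Its 6 control-only cytosines at chr5:4098436-4098506 had 28 to 56 reads at 94.7%, its fasted-only stretches had 2 cytosines at 98.1% and 4 at 0.641%, and the pseudogene Cyp3a58-ps held 7 fasted-only cytosines at chr5:145493601-145493675 at 87.0%. Vomeronasal receptors held 4 control-only stretches (0.651%, against 0.0533%) and 0 fasted-only ones (against 0.0584%). Zinc finger genes held 12 (1.95%, against 1.04%) and 8 (1.09%, against 1.04%), among them 15 fasted-only cytosines in Zfp219 at 0.417%. Vmn2r-ps15, Zfp993 and Zfp978, the last with 3 control-only stretches, lie in the part of chromosome 4 where read placement is uncertain. The control-only shares of both families are therefore uncertain too. Protocadherins held 1 fasted-only stretch, in Pcdh9 at 0% (0.136%, against 0.147%), and 0 control-only ones (against 0.150%). A list of 35 loci known to vary in copy number between strains, which does not include Cwc22, held 0 control-only stretches and 1 fasted-only stretch (0.136%, against 0.0882%), in Klra8, a receptor of natural killer cells, with 41 to 60 reads at 4 cytosines and 72.4%, lying 6766 bp from any cytosine of the control library. The major urinary proteins, glucuronosyltransferases, olfactory receptors, histocompatibility genes, immunoglobulins, serpins, Nlr genes and imprinted genes held 0 in both directions, where the share of stretches listed in both ran from 0.00119% for the major urinary proteins to 0.159% for the imprinted genes. At such shares 0 is not a result about these genes either.

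Some genes held several stretches. Cadps, a gene of vesicle priming, had 6 control-only stretches with 29 cytosines and a median level of 87.7%, and 0 fasted-only. The adjoining Ptprg, a receptor phosphatase, had 5 control-only and Gm5087 4, also with 0 in the other direction. Akap9, Blnk, Med13l, Ptprt, Reln and Zfp978 had 3 control-only and 0 fasted-only stretches, and Cdk6 had 3 and 1. In the fasted direction Pard6g and Slc66a2, near each other on chromosome 18, had 5 each, and Kcng2, a potassium channel subunit, and Iqgap2 had 4 each, all with 0 control-only. 4930586N03Rik, Dst, Exoc4, Ksr2, Mgmt, Pax7, Rad51b and Thsd7b had 3 and 0, Lmo4 had 3 fasted-only and 1 control-only, and Arhgap26, Nfatc1, Plekha5 and Trpm3 had 3 and 2. Slit3, an axon guidance ligand, had 3 control-only and 4 fasted-only stretches. These genes were picked for 3 or more stretches in one direction, which favours genes with stretches in one library. The split between libraries is therefore a description only.

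Stretches of the opposite direction could also lie side by side. Within 300 bp there were 27 pairs, 5 of them overlapping. In 21 pairs both stretches were under 20% methylated, each in its own library, and in 1 both were over 80%. The gaps in the 27 pairs ran from 0 to 287 bp. The 4 pairs with the most cytosines are named here, chosen after their values were seen. At Srrm2, 11 control-only cytosines at chr17:23803295-23803329 were at 0.627%, 64 bp from its 20 fasted-only ones. In Col23a1, 2 fasted-only cytosines at 0% lay inside the span of the 24 control-only ones. Ube2e1 had 7 control-only cytosines at 5.14%, 16 bp from its 18 fasted-only ones. Near Ccdc134, 67 bp outside the gene, 11 cytosines at chr15:82127761-82127831 had a median of 31 control reads at 1.03%, and 95 bp on, 12 cytosines at chr15:82127926-82128002 had a median of 27.5 fasted reads at 0.298%. Within 100000 bp a stretch of the other direction was found for 208 control-only (33.9%) and 247 fasted-only stretches (33.5%).

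Methylation at cytosines listed in both libraries was not used by the rule. Each autosomal cytosine with at least 10 reads in both was tested on its reads with Fisher's exact test (two-sided), Benjamini-Hochberg adjustment covering all of them. A call needed an adjusted p below 0.05 and levels at least 25 points apart. Over all 1603296 cytosines tested, 1315 were called (0.082%). Within 1000 bp of a stretch 71 of 23033 were called (0.308%, interval 0.241 to 0.389), of which 31 were higher and 40 lower in the fasted library. Over all cytosines 719 (0.0448%) were higher and 596 (0.0372%) lower. The shares were 0.320% around control-only and 0.315% around fasted-only stretches. At 20 or more reads in both libraries, 30 of 10703 were called near stretches (0.280%), against 0.143% of all tested. This contrast was smaller, and the part of depth was not tested further. Neighbouring cytosines share reads and fragments, so the intervals are too narrow, and the test compares 2 libraries, not fed with fasted animals.

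This share was divided by the mean level of each cytosine over both libraries. A call needs levels far apart, for which a mean near either end of the scale leaves little room. The contrast between classes thus follows in part from how they were made, and no conclusion is drawn from it. Most neighbours were unmethylated, and of 21074 neighbours with a mean level under 20% 3 were called (0.0142%). Of 323 at 40 to 60%, 49 were called (15.2%, interval 11.4 to 19.6), against 579 of 66031 (0.877%) elsewhere. At 20 to 40% the shares were 2.81% near stretches and 0.541% elsewhere, and at 60 to 80% they were 1.79% and 0.229%. In each of these classes the share near stretches was the higher one.

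The calls came from a small number of stretches. Among stretches with at least 3 tested neighbours, 15 of 269 control-only (5.58%) and 22 of 341 fasted-only ones (6.45%) had a called neighbour, against 0.472% and 0.492% of stretches listed in both. This is not like for like, since stretches listed in both keep their deep shared cytosines inside the span. With at least 3 neighbours, theirs had medians of 10.5 (control) and 11.1 (fasted) reads, against 15.9 and 15.8 around one-library stretches. At Rhbdf1, which encodes an inactive rhomboid protease, 8 control-only cytosines at chr11:32216009-32216170 were at 97.7% and 2 fasted-only ones at chr11:32215678-32215722 at 37.0%. Their 7 shared neighbours had mean levels of 94.6% (control) and 21.8% (fasted), and 6 were called. At Gm8773, 6 control-only cytosines were at 0.833%, and 13 neighbours had mean levels of 28.1% (control) and 71.9% (fasted), with 6 called. In Gm42011, 13 neighbours of the fasted-only stretch stood at 69.5% and 22.5%, with 2 called. The first 2 were named after their values were seen, for their number of called neighbours. Differences thus ran in both directions.

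Stretches gathered in a few parts of the genome. In blocks of 1000000 bp, 78 blocks with 5 or more stretches held 658 of them (48.7%) but 5.34% of the cytosines with at least 20 reads. Blocks with 0 stretches numbered 1886. The 20 blocks with 10 or more held 276 stretches, 16.6 per 1000 such cytosines. Depth and coverage were as follows. Blocks with 10 or more stretches had a median of 645.5 cytosines with at least 20 reads and blocks with 0 had 276.5, and the part of coverage was not tested. The median log2 ratio of fasted to control reads was 0.019 in them and -0.020 in blocks with 0, and the range was -0.258 to 0.278 and -0.643 to 0.455.

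The blocks with most stretches also had the largest share of called cytosines, including away from the stretches. In blocks with 5 or more stretches 356 of 78400 cytosines were called (0.454%, interval 0.408 to 0.504) against 0.0629% in the others, and with cytosines within 1000 bp of a stretch left out 311 of 69310 (0.449%) against 0.0617%. The share rose from 0.0444% in blocks with 0 stretches to 0.113% with 1, 0.138% with 2 to 4, 0.341% with 5 to 9 and 0.715% with 10 or more. Over 2204 blocks with at least 100 tested cytosines, Spearman's rho between stretches and called share was 0.369, and 0.350 without the cytosines near a stretch, as a description; blocks share 1 pair of libraries. Depth was raised as an alternative, to at least 20 reads in both libraries. In blocks with 5 or more stretches 131 of 27150 were then called (0.483%), against 0.125% in the others, a smaller contrast. The block comparison was chosen after the data were seen.

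**Figure D5:**
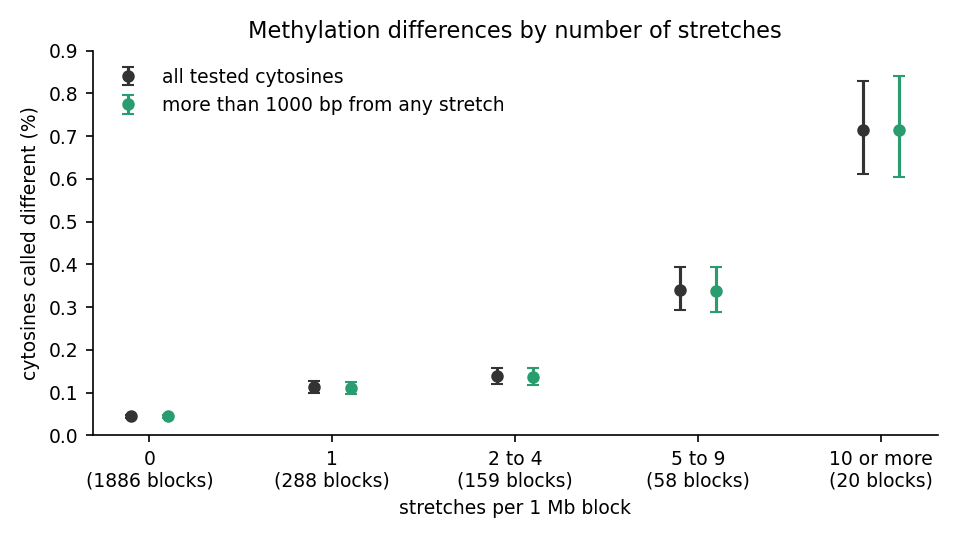
Share of tested cytosines called different between the 2 libraries (y axis, %) by number of stretches per block of 1000000 bp (x axis), for all tested cytosines (black) and those more than 1000 bp from any stretch (green), with exact 95% intervals for counting error. The share is 0.0444% in 1886 blocks without a stretch and 0.715% in 20 blocks with 10 or more.

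The fullest block, on chromosome 18 from 80000001 bp, held 6 control-only and 28 fasted-only stretches around Pard6g, Slc66a2, Kcng2, Rbfa and Nfatc1, and 22 of 1662 tested cytosines were called (1.32%). On chromosome 13 from 23000001 bp, 6 and 17 stretches lay among histone genes such as H1f3, H2bc6 and H4c4 and tRNA genes, and 3 of 867 were called (0.346%). Histone genes are alike in sequence, so placement of reads there is uncertain. On chromosome 11 from 95000001 bp, 17 control-only and 3 fasted-only stretches lay around B4galnt2, Ngfr and Abi3, with 0.282% called. On chromosome 6 from 140000001 bp, 3 and 10 lay around Plekha5 and Aebp2, with 14 of 427 called (3.28%). Chromosome 14 held runs of one direction, with 10 control-only and 1 fasted-only stretches from 12000001 bp, 10 and 2 from 15000001 bp, and 0 and 10 from 44000001 bp. The block from 23000001 bp on chromosome 17, with 5 and 5, had 0 of 1246 called.

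Whole chromosomes differed in the same way. Chromosome 14 had 79 control-only and 73 fasted-only stretches, 4.10 per 1000 cytosines with at least 20 reads, and 0.163% of its tested cytosines were called. Chromosome 16 had 5 and 2, or 0.224 per 1000, and 0.0273% called. These were the highest and the lowest of 19 autosomes on both measures. Control-only stretches outnumbered fasted-only ones on chromosome 5, with 70 and 43, and fasted-only ones were more on chromosome 13, with 22 and 63, and chromosome 18, with 16 and 48.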

How the data were processed

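DNA methylation was read in 1 control and 1 fasted liver library. Per the submitters' processing notes, the authors ran Bismark 0.14.3 and bcl2fastq 1.8.4 on build mm10; any filter is not stated in the sources. The deposited lists give each CpG cytosine with methylated and total read counts in a text field, and a deposited score that is 1000 times the methylated fraction. The read counts were used. Library groups follow the sample titles.

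Stretches, neighbours, Fisher's exact tests and intervals were computed in Python 3.11.15 with NumPy 2.4.6, pandas 2.3.3, SciPy 1.17.1 and numba 0.67.0; a stretch's level is the mean of its cytosine levels. The test and the joining were tested on simulated data. Gene positions and sequences are from RefSeq GRCm38.p6, which shares mm10 coordinates; the gene start windows used here hold none on chromosome 18.

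The members and the 15 gene lists were chosen with earlier results of these data known. Named stretches are, per direction, the 10 with the most cytosines, the 5 deepest, the 5 longest, the 5 nearest 50% among those of at least 5 cytosines, the 5 largest at a protein-coding gene end (1000 bp outside to 500 inside), the largest per gene list, and genes with 3 or more. Alternatives were other read minimums, joining distances, cytosine numbers, merged strands, all chromosomes, thinned or halved reads, and other neighbour distances. The X, Y and unplaced sequences were left out of the stretches.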

Additional observations from a re-analysis of the deposited data

Results flagged for a closer look

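The sex chromosomes were outside the rule, so these counts come from data not used above. On chromosome X, 5 stretches were read only in the control library, of a median level of 4.76%, and 5 only in the fasted library, of a median level of 52.2%. That is 1.12 and 1.09 per 1000 cytosines with at least 20 reads, beside 0.818 and 0.934 on the autosomes. Chromosome Y held 0 and 1.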

How the results depend on the processing

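The number of stretches rests on the read minimum. At 10, 30 and 50 reads there were 2946, 183 and 28 control-only and 3611, 200 and 35 fasted-only stretches. The share under 20% methylated was 19.9, 53.0 and 71.4% (control only) and 20.2, 47 and 57.1% (fasted only), and the median span 65, 30 and 19.5 bp and 67, 22 and 22 bp. The share in genes was 67.8% and 78.6% for control-only stretches at 30 and 50 reads and 65.7% for fasted-only ones at 50, and the neighbours' log2 depth ratio 0.028 for control-only stretches at 10 and 0.098 for fasted-only ones at 50. With 3 or 5 cytosines the numbers were 340 and 172, and 415 and 179, of which 51.5% and 66.9%, and 48.9% and 67.0% were under 20%, with spans of 61 and 83.5 bp, and 63 and 84 bp; 71.5% of control-only stretches of 5 and 66.5% and 66.5% of fasted-only ones of 3 or 5 lay in genes. Halving every read count, which treats reads as counted in pairs, left 63 and 72 stretches, 68.3% and 52.8% of them under 20%, spans of 18 and 23.5 bp, log2 ratios of 0.167 and 0.081 and 74.6% of control-only stretches in genes. Merging strands gave 1106 fasted-only stretches, 32.5% and 32.4% under 20%, and for fasted-only ones a span of 44 bp and a ratio of 0.079. Stretches with no cytosine of the other library inside had 31.4% and 29.4% under 20% and spans of 36 and 33 bp. Joining under 100 bp gave spans of 30 and 27 bp, and neighbours within 5000 bp a ratio of 0.038 for control-only stretches.

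Halving also took the share of called neighbours to 0.0934% (10 calls) against 0.019% of all tested, and that in blocks of 5 or more stretches to 0.195%, against 0.00968%. Blocks of 2000000 bp, added after seeing the data, had 0.287% called against 0.059%. Under each of these 3 the share near stretches or in such blocks was the higher one. Of 148 comparisons with an alternative, 86 stayed within the interval of the reported value, or within 1.5 times for counts and called shares. The cause of the other 62 moves was not tested. No paired analysis was possible because each group is 1 library. Depth limits what counts as missing: with fewer reads than 20 in the reading library, an absent row and a shallow one are harder to tell apart.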
